A study of Mus musculus with 6 samples.

Results

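The EGF receptor family and its ligands were examined in tumor cells from the mammary glands of MMTV-PyVT mice, in which the MMTV promoter drives the polyoma middle T oncogene in mammary epithelium. The genes were chosen by name, as the rows of the deposited count table with the symbols Egfr, Erbb2, Erbb3, Areg, Ereg, Hbegf, Tgfa, Btc and Nrg1. Of these 9 symbols, 6 were listed among the 10995 rows of the table, namely the receptors Egfr, Erbb2 and Erbb3 and the ligands Hbegf, Tgfa and Nrg1. Areg, Ereg and Btc were not listed, and their levels were not analysed here. There were 3 libraries labelled KO, with the genotype Nr4a1-/-, and 3 labelled WT, wild type for Nr4a1. All carried the PyVT transgene on the FVB/NJ strain, and the series' text describes the mice as age matched without giving the age. The sources used here do not say whether a group's libraries stem from different animals. The p-values thus cover the spread between libraries alone, and that spread may be technical.

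The ERBB receptors are cell surface tyrosine kinases that work in pairs. Egfr binds EGF-type ligands such as those encoded by Tgfa and Hbegf, Erbb3 binds neuregulins such as the product of Nrg1 but has little kinase activity of its own, and Erbb2 binds no known ligand and serves as the favoured partner of the others. Active pairs recruit adaptors and switch on the RAS-ERK cascade and the PI3K-AKT pathway, and the family is known for its part in mammary gland growth and in breast cancer.

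The libraries held between 19569173 and 24188875 counts. Nr4a1 stood at 25.1, 35.5 and 37.7 CPM (counts scaled to the TMM-adjusted size of each library) in the libraries labelled KO, against 34.5, 18.6 and 16.9 CPM in those labelled WT, so the targeted transcript was not lower with the KO label. Nr4a1 had a log2 fold change of 0.49 with an SE of 0.32 (edgeR adjusted p = 0.59), which was 0.88 without WT replicate 1 and 0.31 without WT replicate 3. Counts per gene cannot tell whether reads fall in the deleted or altered piece of Nr4a1. Every direction below is therefore between libraries as labelled. The library labelled WT replicate 1 stood apart from the others on the first principal component, at -48.2 against -1.57 to 26.7. It held the highest or lowest level of the 6 libraries in 63.8% of all genes. All 9 luminal epithelial markers were listed, among them Epcam, Krt8, Krt18 and Cdh1, and 0 of 6 endothelial markers were. In these bulk samples fewer cells of a type and less RNA per cell cannot be told apart.

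The stretches around the transcription start of Egfr, Erbb2 and Tgfa are shown because the motif bound by NR4A receptors, the NBRE, was looked for in them. Promoter sequences of RefSeq (GRCm38.p6), covering 250 bases before to 50 bases after the start, were searched for these 3 of the 6 listed genes. Erbb3 and Nrg1 had no entry among the promoter sequences used, and Hbegf was left out of the search. The windows lie at chr11:16751953-16752252 on the plus strand for Egfr, chr11:98412234-98412533 on the plus strand for Erbb2 and chr6:86194972-86195271 on the plus strand for Tgfa. Capitals mark matches, on either strand, to the GC box.
Egfr: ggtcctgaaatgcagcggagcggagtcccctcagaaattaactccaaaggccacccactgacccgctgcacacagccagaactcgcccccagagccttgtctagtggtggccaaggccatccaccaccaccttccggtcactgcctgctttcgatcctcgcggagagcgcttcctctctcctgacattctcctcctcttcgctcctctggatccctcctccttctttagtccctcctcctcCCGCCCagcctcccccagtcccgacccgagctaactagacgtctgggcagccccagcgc
Erbb2: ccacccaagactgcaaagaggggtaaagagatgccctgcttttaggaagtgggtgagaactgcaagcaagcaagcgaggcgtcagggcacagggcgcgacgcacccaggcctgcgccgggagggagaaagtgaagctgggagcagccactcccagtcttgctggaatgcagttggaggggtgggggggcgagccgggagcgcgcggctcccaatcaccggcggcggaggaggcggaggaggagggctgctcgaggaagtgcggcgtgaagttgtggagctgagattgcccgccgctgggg
Tgfa: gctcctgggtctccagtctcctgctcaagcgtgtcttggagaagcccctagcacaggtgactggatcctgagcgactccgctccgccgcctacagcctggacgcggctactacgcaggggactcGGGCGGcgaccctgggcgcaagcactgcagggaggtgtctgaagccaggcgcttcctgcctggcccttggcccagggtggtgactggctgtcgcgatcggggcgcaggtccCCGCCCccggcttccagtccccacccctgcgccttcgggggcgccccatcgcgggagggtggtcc

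Both strands of each window were searched for the NBRE (AAAGGTCA), the cyclic AMP response element (TGACGTCA), the AP-1 site (TGACTCA) and the GC box (GGGCGG), and the matches found in these windows did not overlap. The letters of the NBRE, the cyclic AMP element and the AP-1 site did not occur in these 3 windows. The GC box letters occurred at 1 place in the Egfr window, starting 9 bases before the start site on the minus strand. They occurred at 2 places in the Tgfa window, starting 126 bases before the start on the plus strand and 15 bases before it on the minus strand, and at 0 in the Erbb2 window. Windows of Areg, Btc and the further ligand gene Epgn were searched as well and are not shown. The Areg window held the cyclic AMP element, starting 61 bases before the start, and the GC box. No match to these motifs was found in those of Btc and Epgn. Over 32817 mouse promoter windows of the same length, 1.51% held the NBRE, 1.79% the cyclic AMP element, 5.20% the AP-1 site and 35.6% the GC box. GC content was 62.3% in the Egfr window, 66.0% in that of Erbb2 and 70.7% in that of Tgfa, with a median of 52.7% over all windows. A match in such a window is a description of its letters only.

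Among the receptors, Erbb3 was lower in every library labelled KO than in every library labelled WT, Erbb2 stood lower on average with overlapping groups, and Egfr stood slightly higher on average. None of these 3 differences passed the edgeR test across all genes. Over the whole table edgeR called 0 of 10995 genes at an adjusted p under 0.05, a share of 0%. It gave 866 genes, or 7.88%, an unadjusted p under 0.05, with 3.7% higher and 4.17% lower with the KO label, and DESeq2 called 103 genes at an adjusted p under 0.05, or 0.938%.

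Erbb3 (ENSMUSG00000018166.8, chromosome 10, 128567523 to 128589652, minus strand, GRCm38) stood at 72.3, 65.2 and 85.6 CPM in the libraries labelled KO, against 202, 101 and 104 CPM in those labelled WT. The highest library labelled KO lay below the lowest labelled WT, and WT replicate 1 lay far above the other WT libraries. The log2 fold change was -0.87 (SE 0.30), a fold of 0.548, with an unadjusted p of 0.0277 and an edgeR adjusted p of 0.574. In this fit Erbb3 was the 1 listed member with an unadjusted p under 0.05, beside 7.88% of all genes. Across the alternatives 0 to 2 members had such a p, beside 3.53% to 12.4% of all genes. DESeq2 gave Erbb3 an adjusted p of 0.204. Without WT replicate 1 its log2 fold change came to -0.46 with an SE of 0.12 (edgeR adjusted p = 0.722), and Erbb3 levels still did not overlap between the groups. Nor did those of 24.3% of all genes without that library, against 17.4% with every library kept.

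Erbb2 (ENSMUSG00000062312.5, chromosome 11, 98412470 to 98437716, plus strand, GRCm38) stood at 91.0, 79.2 and 98.5 CPM in the libraries labelled KO, against 112, 98.2 and 102 CPM in those labelled WT. The groups met at KO replicate 3 and WT replicate 2, which differed by less than 1 CPM, and under RLE scaling, the scaling that DESeq2 uses, the groups did not overlap. Erbb2 had a log2 fold change of -0.22 with an SE of 0.10 (edgeR adjusted p = 0.574), and it was -0.14 without KO replicate 2.

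Egfr (ENSMUSG00000020122.16, chromosome 11, 16752203 to 16918158, plus strand, GRCm38) stood at 241, 218 and 233 CPM in the libraries labelled KO, against 184, 219 and 218 CPM in those labelled WT. KO replicate 2 lay within the range of the libraries labelled WT, whose lowest value was again WT replicate 1. Egfr had a log2 fold change of 0.15 with an SE of 0.09 (edgeR adjusted p = 0.584), and it was 0.077 without WT replicate 1. The coefficient of variation of Egfr was 4.89% over the libraries labelled KO and 9.56% over those labelled WT.

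**Figure D1:**
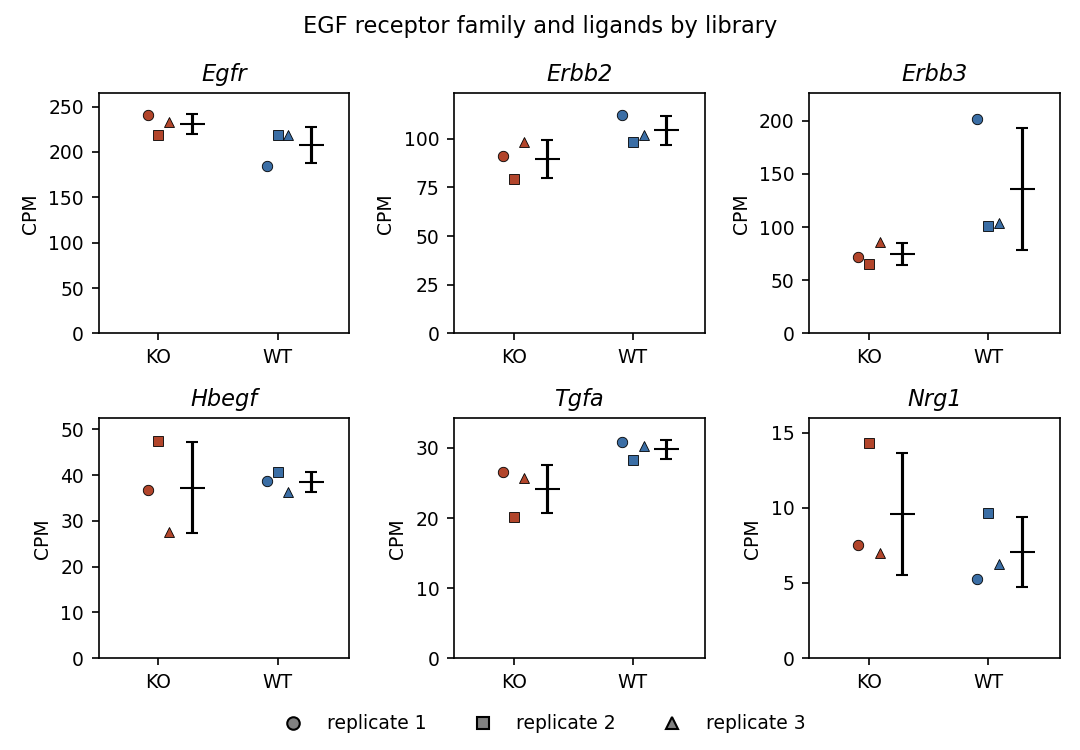
Levels of the 6 listed members in CPM in each library, libraries labelled KO on the left and WT on the right of each panel, with a marker shape per replicate number and the mean ± SD (n = 3) beside the points; the replicate numbers do not pair libraries. All Erbb3 and Tgfa points labelled KO lie below those labelled WT, and the Erbb3 point of WT replicate 1 lies at 202 CPM.

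Among the ligands, Tgfa was lower in every library labelled KO than in every library labelled WT, Hbegf averaged nearly the same level with both labels, and Nrg1 stood higher on average with wide spread. None passed the edgeR test. Tgfa, which encodes transforming growth factor alpha, a membrane-bound ligand of Egfr (ENSMUSG00000029999.14, chromosome 6, 86195223 to 86275719, plus strand, GRCm38), stood at 26.6, 20.2 and 25.7 CPM in the libraries labelled KO. In those labelled WT it stood at 30.9, 28.3 and 30.3 CPM. The groups did not overlap, and the libraries labelled WT lay within a narrow range, with a coefficient of variation of 4.51%, against 14.4% in those labelled KO. Tgfa had a log2 fold change of -0.30 with an SE of 0.13 (edgeR adjusted p = 0.574), with an unadjusted p of 0.0520, and it was -0.19 without KO replicate 2.

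Hbegf, the heparin-binding ligand of Egfr and Erbb4 (ENSMUSG00000024486.6, chromosome 18, 36504927 to 36515805, minus strand, GRCm38), stood at 36.8, 47.5 and 27.6 CPM in the libraries labelled KO. In those labelled WT it stood at 38.7, 40.7 and 36.3 CPM. The libraries labelled KO held both the highest and the lowest value, with a coefficient of variation of 26.8%, against 5.70% in those labelled WT. Its log2 fold change was -0.05 with an SE of 0.20 (edgeR adjusted p = 0.930). The sign turned to 0.13 without KO replicate 3.

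Nrg1, a neuregulin that binds Erbb3 and Erbb4 (ENSMUSG00000062991.7, chromosome 8, 31814551 to 32884029, minus strand, GRCm38), was the lowest of the listed members. It stood at 7.51, 14.3 and 7.01 CPM in the libraries labelled KO, against 5.28, 9.68 and 6.26 CPM in those labelled WT. Replicate 2 was the highest library of each label, and the groups overlapped. Nrg1 had a log2 fold change of 0.44 with an SE of 0.37 (edgeR adjusted p = 0.645). It was 0.038 without KO replicate 2, 0.27 without WT replicate 1 and 0.74 without WT replicate 2. The annotation lists 18 Nrg1 transcripts, 12 of them protein coding, and counts per gene do not separate them.

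Across the 6 listed members, 4 log2 fold changes lay below 0 and 2 above, where 50.6% of all genes lay below and 49.4% above. The groups did not overlap for 2 of the 6, Erbb3 and Tgfa, and for 17.4% of all genes. All KO libraries lay below all WT libraries in 9.05% of all genes and above them in 8.39%. Without WT replicate 2 the groups did not overlap for 5 of the 6, Hbegf being the exception, and for 33.1% of all genes. The two-sided exact permutation test of log2 CPM, whose smallest possible p with 3 libraries against 3 is 0.1, gave 0.1 for Erbb3 and for Tgfa and 0.2 for Egfr and for Erbb2. It gave 0.4 for Nrg1 and 0.8 for Hbegf, and over these 6 tests the lowest adjusted p was 0.3. WT replicate 1 held the highest level of Erbb2, Erbb3 and Tgfa and the lowest level of Egfr and Nrg1 among the 6 libraries. The highest library exceeded the lowest by 3.10 times for Erbb3 and 2.71 times for Nrg1, and by 1.31 times for Egfr.

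**Figure D2:**
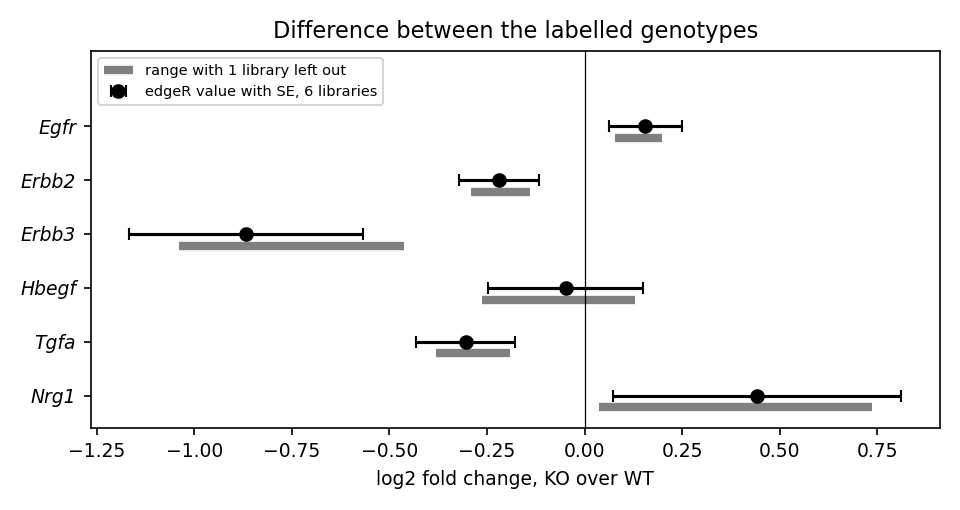
Differences of the 6 listed members: the point is the log2 fold change of libraries labelled KO over those labelled WT with its SE from edgeR on 6 libraries, and the grey bar is the range with 1 library left out. The Erbb3 bar runs between -1.04 and -0.46, and only the Hbegf bar crosses 0.

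Ratios of counts between receptors in the same library do not depend on the scaling. These ratios were formed after the values had been seen and are given as a description. The Egfr count was 3.33, 3.35 and 2.72 times the Erbb3 count in the libraries labelled KO, against 0.912, 2.17 and 2.10 times in those labelled WT. The Egfr count was 2.65, 2.76 and 2.36 times the Erbb2 count in the libraries labelled KO, against 1.64, 2.23 and 2.14 times in those labelled WT. Both ratios were higher in every library labelled KO than in every library labelled WT. The Erbb2 count was 1.26, 1.21 and 1.15 times the Erbb3 count in the libraries labelled KO, against 0.557, 0.973 and 0.984 times in those labelled WT, also without overlap. These receptor ratios share their genes, so they are not independent, and WT replicate 1 held the lowest value of each. How often ratios of other gene pairs stay apart was not counted. The ratio of the ligand counts, Hbegf over Tgfa, ranged from 1.07 to 2.36 with the KO label and from 1.20 to 1.44 with the WT label, and overlapped.

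Levels were compared between genes as CPM per kilobase of merged annotated exons. In the libraries labelled KO the order was Egfr at 20.4 ± 0.993, Erbb2 at 17.2 ± 1.86, Erbb3 at 12.4 ± 1.72, Hbegf at 7.71 ± 2.07, Tgfa at 3.72 ± 0.535 and Nrg1 at 0.928 ± 0.393 CPM per kilobase (SD, n = 3). In the libraries labelled WT it was Erbb3 at 22.5 ± 9.56, Erbb2 at 20.02 ± 1.42, Egfr at 18.3 ± 1.75, Hbegf at 7.98 ± 0.455, Tgfa at 4.59 ± 0.207 and Nrg1 at 0.683 ± 0.223 CPM per kilobase (SD, n = 3). With the KO label every Egfr value per kilobase, between 19.3 and 21.2, lay above every Erbb2 value, between 15.2 and 18.9, and every Erbb3 value, between 10.8 and 14.2, lay below those. With the WT label the 3 receptors could not be ordered beyond their spread: Erbb3 ranged from 16.8 to 33.6, Erbb2 from 18.9 to 21.6 and Egfr from 16.3 to 19.3 CPM per kilobase. The first place of Erbb3 rested on WT replicate 1, at 33.6. In WT replicates 2 and 3, at 16.8 and 17.25, Erbb3 was the lowest of the 3 receptors. The receptors lay above the ligands in both groups on this length. By the longest annotated transcript instead, Hbegf stood at 12.9 ± 3.46 and Erbb3 at 12.4 ± 1.72 CPM per kilobase with the KO label (SD, n = 3), so these neighbours changed places. Of the family genes outside the named set, Epgn, which encodes the Egfr ligand epigen, was the only one listed. It stood at 16.01, 11.2 and 9.89 CPM in the libraries labelled KO, against 2.38, 14.9 and 17.9 CPM in those labelled WT, with WT replicate 1 the lowest. Erbb4, Egf, Nrg2, Nrg3 and Nrg4 were not listed and were not analysed here.

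Summed markers of several cell types differed on average between the labels, and the listed members were set beside them in each library. All 9 luminal markers lay below 0 in log2 fold change, and their summed level ranged from 3977 to 4958 CPM in the libraries labelled KO, against 6302 to 7097 CPM in those labelled WT. Of the 8 fibroblast markers, 6 were listed and all 6 lay above 0, with sums of 3221 to 5751 CPM in the libraries labelled KO, against 1450 to 3797 CPM in those labelled WT. These sums overlapped, as did each of the 6 genes. Lum and Fap were not listed. All 8 macrophage markers were listed and lay above 0, with sums of 713 to 1082 CPM with the KO label and 379 to 692 CPM with the WT label. Of the 6 pericyte and smooth muscle markers, 5 were listed and all 5 lay above 0, with sums of 255 to 460 CPM with the KO label and 89.1 to 229 CPM with the WT label. All 7 basal and myoepithelial markers were listed, 4 above and 3 below 0, with sums of 2065 to 2483 CPM with the KO label and 1108 to 2871 CPM with the WT label. Of 5 adipocyte markers only Fabp4 was listed, at 26.6 to 78.1 CPM in the libraries labelled KO, against 2.45 to 4.27 CPM in those labelled WT. Of 6 T and B cell markers only Ptprc, which other leukocytes also express, was listed, at 10.4 to 11.3 CPM with the KO label and 4.94 to 7.48 CPM with the WT label. No listed marker gene was called by edgeR, and no listed marker was at 0. DESeq2 called Fabp4 (adjusted p = 2.9e-16), Rgs5 (7.4e-06), Abcc9 (0.0210) and Ptprc (0.0297), all higher with the KO label, and the luminal keratin gene Krt7 (0.00532), lower. The part of these shifts in the differences of Erbb3, Tgfa, Erbb2, Egfr and Nrg1 was not tested. The ratios that follow were chosen after the values had been seen and are a description. The luminal sums themselves did not overlap between the labels, so a gene with little difference in CPM stands higher with the KO label on that base.

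Per 1000 CPM of luminal markers, Erbb3 stood at 14.6, 16.4 and 19.6 CPM in the libraries labelled KO, against 28.5, 15.8 and 16.5 CPM in those labelled WT. On this base the groups overlapped, and WT replicate 1 alone lay above the libraries labelled KO. Erbb2 stood at 18.3, 19.9 and 22.6 CPM per 1000 CPM of luminal markers with the KO label, against 15.9, 15.4 and 16.2 with the WT label. Tgfa stood at 5.36, 5.07 and 5.89 with the KO label, against 4.35, 4.43 and 4.80 with the WT label. On this base Erbb2 and Tgfa were thus higher in every library labelled KO than in every library labelled WT, the opposite of their direction in CPM. Egfr ranged from 48.6 to 54.9 CPM per 1000 CPM of luminal markers with the KO label and from 26.0 to 34.6 with the WT label. Hbegf and Nrg1 overlapped on this base. The same calls of overlap were obtained with the geometric mean of the luminal markers in place of their sum. On other bases the groups overlapped or were lower with the KO label. Per 1000 CPM of fibroblast markers, Erbb3 ranged from 11.3 to 26.4 CPM with the KO label and from 26.6 to 139 with the WT label, and per 1000 CPM of macrophage markers from 66.8 to 120.1 with the KO label and from 146 to 511 with the WT label. Per 1000 CPM of macrophage markers, Erbb2 ranged from 81.4 to 138 with the KO label and from 142 to 285 with the WT label, and Tgfa from 20.7 to 36.1 with the KO label and from 40.9 to 79.8 with the WT label. All of these were lower with the KO label without overlap, and with geometric means those of Erbb3 stayed apart while Erbb2 and Tgfa overlapped. Hbegf per 1000 CPM of macrophage markers was also lower by sum and by geometric mean, at 34.0 to 48.9 against 58.9 to 97.8. Egfr and Nrg1 overlapped on the macrophage base, and Egfr, Erbb2, Hbegf and Tgfa on the fibroblast base. Per 1000 CPM of basal and myoepithelial markers every listed member overlapped, though Erbb3 was lower by geometric mean. Nrg1 per 1000 CPM of fibroblast markers ranged from 2.16 to 2.49 with the KO label and from 2.55 to 3.64 with the WT label, and with the geometric mean of these markers its groups overlapped. In KO replicate 2, which had the highest Nrg1 level, the fibroblast markers summed to 5751 CPM, the highest of the 6 libraries.

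**Figure D3:**
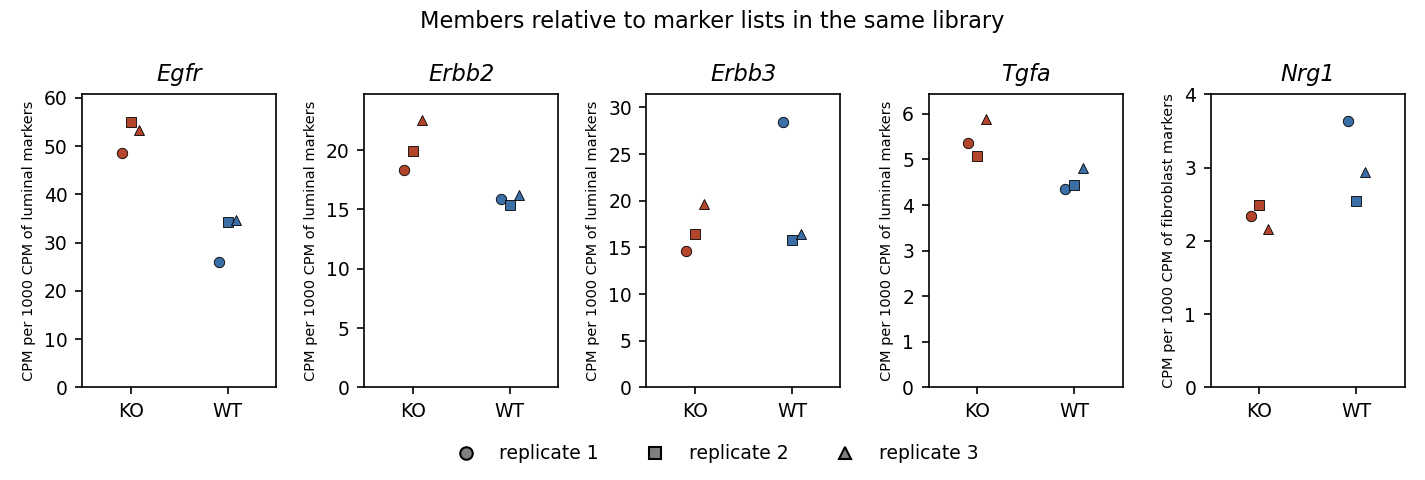
Egfr, Erbb2, Erbb3 and Tgfa per 1000 CPM of 9 summed luminal epithelial markers, and Nrg1 per 1000 CPM of 6 summed fibroblast markers, in each library, labelled KO on the left and WT on the right. Erbb3 overlaps between the labels on this base, with WT replicate 1 at 28.5, while Egfr, Erbb2 and Tgfa points labelled KO lie above those labelled WT.

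Around the receptors, 109 further genes of the family, its shedding proteases and its signalling pathway were taken as lists, and 103 of them were listed in the table. The edgeR test called 0 of the 103 at an adjusted p under 0.05. At an unadjusted p under 0.05 it gave 4 higher and 5 lower with the KO label, or 8.74%, near the 7.88% over all genes. All libraries labelled KO lay above all labelled WT for 6 genes and below them for 16, together 21.4%, beside 17.4% of the whole table. The median log2 fold change of the 103 was -0.03, and over all genes it was -0.002.

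The genes around ligand release from the cell surface are mainly ADAM proteases and their rhomboid-like cofactors, with the protease inhibitor gene Timp3 among them. This list had 13 of 13 members listed, 6 above and 7 below 0, with a median log2 fold change of -0.03. That median was 0.14 without WT replicate 2, 0.064 without WT replicate 3 and 0.013 without KO replicate 3. In this list 1 gene was higher and 2 were lower without overlap, beside 8.39% and 9.05% of all genes. The naming rule took Rhbdf2 and Adam9, and likewise the genes it named from the lists below, from those without overlap. Their separation follows from that choice. Rhbdf2, which encodes iRhom2, a cofactor of the sheddase ADAM17, stood at 100, 110 and 109 CPM in the libraries labelled KO, against 274, 134 and 170 CPM in those labelled WT. Its groups did not overlap, with a log2 fold change of -0.86 (SE 0.26, edgeR adjusted p = 0.574), and -0.52 without WT replicate 1. Adam9, a membrane protease, stood at 244, 281 and 257 CPM in the libraries labelled KO, against 165, 230 and 219 CPM in those labelled WT. The log2 fold change of Adam9, 0.35 with an SE of 0.14, missed the threshold (edgeR adjusted p = 0.574), and was 0.21 without WT replicate 1. Adam17 itself, which cleaves pro-TGF-alpha, ranged from 122 to 148 CPM with the KO label and from 134 to 142 CPM with the WT label.

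The adaptors and proximal enzymes had 17 of 17 listed, with a median log2 fold change of -0.03 and 3 genes that did not overlap, all lower. The median was -0.0029 without KO replicate 2 and -0.0020 without WT replicate 3. Grb2, the adaptor that links receptors to RAS activation, stood at 134, 142 and 130 CPM in the libraries labelled KO, against 310, 148 and 147 CPM in those labelled WT. Its log2 fold change of -0.57 (SE 0.31, edgeR adjusted p = 0.574) was -0.12 without WT replicate 1, and 13.3% of the 31-base words of its longest transcript also occur in other genes. Vav2 had -0.18 (SE 0.09, edgeR adjusted p = 0.574), and -0.11 without KO replicate 1. In the RAS-ERK cascade, 13 of 13 were listed with a median of -0.11, which was -0.042 without WT replicate 1 and -0.063 without KO replicate 2, and 2 did not overlap, both lower. Hras had a log2 fold change of -0.15 with an SE of 0.07 (edgeR adjusted p = 0.574), and -0.094 without WT replicate 3. In the PI3K-AKT arm, 13 of 13 were listed with a median of -0.07, which was -0.0040 without WT replicate 1, and 4 did not overlap, all lower. Beside these counts, 9.05% of all genes were lower without overlap, and 17.4% did not overlap in either direction. Rptor, the substrate-binding subunit of mTOR complex 1, had a log2 fold change of -0.70 (SE 0.31), and -0.27 without WT replicate 1. Pik3cb, a catalytic subunit of PI3K, stood at 141, 121 and 155 CPM in the libraries labelled KO, against 189, 159 and 163 CPM in those labelled WT, with a log2 fold change of -0.29 (SE 0.12, edgeR adjusted p = 0.574).

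Inhibitors of the receptors had 13 of 13 listed, 5 above and 8 below 0, with a median log2 fold change of -0.04, and -0.014 without WT replicate 1. The 2 that did not overlap were both lower with the KO label, as were 9.05% of all genes, and 17.4% of all genes did not overlap in either direction. Cblc, an epithelial ubiquitin ligase of the CBL family, stood at 23.1, 18.7 and 20.4 CPM in the libraries labelled KO, against 34.5, 25.04 and 33.2 CPM in those labelled WT. Lrig1, a membrane protein that promotes breakdown of ERBB receptors, stood at 218, 204 and 231 CPM in the libraries labelled KO, against 322, 256.2 and 273 CPM in those labelled WT. Their log2 fold changes of -0.58 (SE 0.16) and -0.38 (SE 0.11) did not pass, each with an edgeR adjusted p of 0.574. Errfi1, which encodes the kinase inhibitor MIG6, ranged from 274 to 324 CPM with the KO label and from 209 to 297 CPM with the WT label, and was picked after its values were seen.

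The genes of receptor endocytosis and sorting had 16 of 17 listed, with a median log2 fold change of 0.01, and -0.046 without WT replicate 1. Rab5a, a small GTPase of early endosomes through which internalised receptors pass, stood at 110, 102 and 106 CPM in the libraries labelled KO, against 80.5, 79.7 and 82.5 CPM in those labelled WT. The groups lay well apart, with coefficients of variation of 3.77% with the KO label and 1.78% with the WT label. Rab5a had a log2 fold change of 0.39 with an SE of 0.06 (edgeR adjusted p = 0.528). It was the only one of the 103 genes that DESeq2 called, with an adjusted p of 7.6e-05, where DESeq2 called 0.938% of all genes. The Rab5a log2 fold change ranged from 0.36 to 0.41 with each library left out in turn. Exons of Pp2d1 on the opposite strand cover 4.19% of its exon bases, and the sources used here do not state whether strand was counted. Ap2m1, a subunit of the clathrin adaptor, had a log2 fold change of 0.19 (SE 0.07, edgeR adjusted p = 0.574), and 46.1% of its words occur in other genes, so its reads are uncertain.

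Genes whose transcription follows ERK activity had 17 of 17 listed, 12 above and 5 below 0, with a median log2 fold change of 0.14, which was -0.12 without WT replicate 1. WT replicate 1 held the lowest level of the 6 libraries in 11 of these 17 genes, and in 31.6% of all genes. The 3 that did not overlap and were higher with the KO label were Etv5, Dusp6 and Spry2, and the 1 that was lower was Fos. Over all genes 8.39% were higher and 9.05% lower without overlap. Etv5, an ETS-family transcription factor, stood at 48.2, 39.7 and 43.5 CPM in the libraries labelled KO, against 9.79, 34.7 and 32.1 CPM in those labelled WT. The Etv5 log2 fold change of 0.78 had an SE of 0.45 (edgeR adjusted p = 0.581), and it was 0.39 without WT replicate 1, and 32.3% of its words occur in other genes. Fos, an immediate early gene, stood at 34.4, 26.9 and 35.02 CPM in the libraries labelled KO, against 77.6, 44.5 and 35.9 CPM in those labelled WT, with a log2 fold change of -0.71 (SE 0.30, edgeR adjusted p = 0.574), and -0.33 without WT replicate 1. Dusp6, the ERK phosphatase, had 0.38 (SE 0.15, edgeR adjusted p = 0.574).

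**Figure D4:**
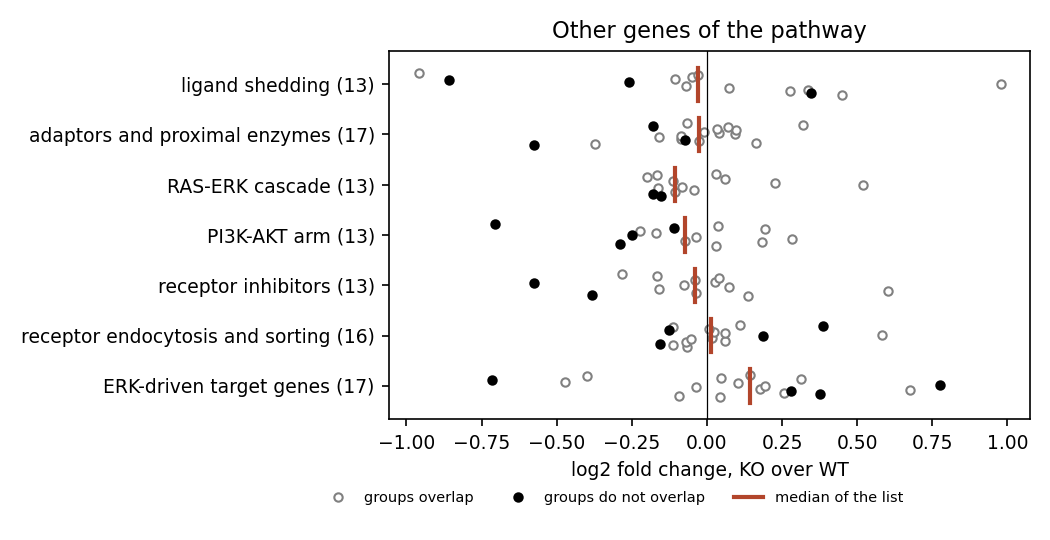
Log2 fold changes of libraries labelled KO over those labelled WT for 7 lists of pathway genes around the receptors, with the number of listed genes in brackets, a point per gene, filled where the groups do not overlap, and a bar at the list's median. The medians lie between -0.11 and 0.14, and none of the points passed the edgeR test.

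The rows most like each member were found by Pearson's r of log2 CPM over the 6 libraries among 10539 named rows, as a description of shared patterns in libraries that also share depth and WT replicate 1. Egfr was most like Smpd2 (r = 0.996) and Aldh2 (0.995), and 325 rows had r above 0.9. Erbb2 was most like Rassf7 (0.998) and the PI3K subunit gene Pik3cb (0.996), with 372 such rows. Erbb3 was most like Nemp1 (0.997) and the oxygen sensor gene Egln2 (0.996), with 877 such rows. Tgfa was most like Zfyve9 (0.995) and Fam83h (0.989), with 157 such rows. Nrg1 was most like Snx9 (0.997) and Rilpl1 (0.996), with 279, and Hbegf was most like Actr1b (0.990) and Gnas (0.982), with 54. Exons on the opposite strand cover 20.3% of the exon bases of Smpd2, 21.96% of Gnas, 10.9% of Zfyve9 and 10.5% of Rilpl1, so their reads are uncertain. For the listed members themselves such cover was at most 4.66%, in Nrg1, and at most 1.98% of the words of a member's longest transcript, in Tgfa, occurred in other genes.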

How the data were processed

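The authors deposited raw read counts per gene symbol, 1 column per library and unnormalized. Reads were handled with CASAVA 1.8, HISAT2 and featureCounts on GRCm38 (mm10), per the submitters' processing notes. The sources used here do not state the annotation release or the strand and multi-mapping rules. Each row reached 133 or more counts in its highest library. Counts were analysed in R 4.3.3 with edgeR 4.0.16 (filterByExpr, which removed 0 genes, TMM scaling, robust quasi-likelihood F test, group as the only term), with Benjamini-Hochberg adjustment over all 10995 rows at 0.05. CPM uses the TMM-scaled library size, and log2 fold changes are KO over WT. Precision is limited by the 3 libraries per group and the spread between them.

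DESeq2 1.42.0, limma-voom (limma 3.58.1), other scalings and filters, the replicate number as a block and each library left out were alternatives. The tests were run on simulated counts with known changes, all larger than the differences of the listed members, so this check does not cover differences of their size. Coordinates, exon lengths, transcript counts and shared 31-base words came from GENCODE M21 (GRCm38) with Python 3.11.15, and promoters from RefSeq. The members, lists and tests were chosen with earlier results of these data known. The naming rule took all 9 members, Nr4a1, the 2 most changed genes of each list among those whose groups did not overlap, and the 2 rows most like each member. Other genes, such as Adam17, Errfi1, Dusp6 and Spry2, were named after their values were seen. The value of 1 listed pathway gene that this rule named is not reported here.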

Additional observations from a re-analysis of the deposited data

How the results depend on the processing

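Of the 77 log2 fold changes of listed members under alternatives, 76 kept their direction and 0 passed an adjusted p of 0.05, the lowest being 0.204 for Erbb3 in DESeq2. The 77 include the setting without a filter, which could only repeat the reported fit because filterByExpr removed 0 genes. The 1 that reversed was Hbegf, at 0.13 without KO replicate 3, with its values ranging from -0.26 to 0.13 when single libraries were left out. The count of members called was 0 under all of these alternatives. At an unadjusted p under 0.05 it was 1 in the reported fit, 2 in limma-voom, with the replicate block and without KO replicate 3, and 0 without KO replicate 2. The share of all genes at that threshold was 7.88% in the reported fit, 8.09% in limma-voom and 7.84% with the block. It was 7.81% without KO replicate 3 and 3.53% without KO replicate 2. The count of called genes over the whole table was 0 in edgeR, 103 in DESeq2, 0 in limma-voom and 866 at an unadjusted p under 0.05, and ranged from 0 to 2 when single libraries were left out. The cause of these differences was not tested. Same-numbered libraries did not all deviate together (correlations of -0.11, 0.35 and -0.26 for numbers 1, 2 and 3), so the numbers were not taken as pairs. With the replicate block, edgeR called 0 genes, and the log2 fold change was -0.80 for Erbb3, -0.31 for Tgfa and -0.22 for Erbb2. Not every library was closest to its own number. Levels of genes outside the table, the 3 unlisted members among them, were not analysed here, and 3 libraries per group limit what the tests can call.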
